A study of Drosophila melanogaster with 8 samples.

Results

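A set of 8 genes of the DNA damage response and of DNA repair was examined for RNA polymerase II (RNAPII) occupancy in S2 cells, a hemocyte-like cell line of Drosophila melanogaster. Those described one by one are rad50, mei-41, Ku80, mus301, tefu, lok and p53, and all counts are over the 8. Sites were taken wherever the authors' annotation, which names the gene with the nearest transcription start site (TSS), gave one of these names. That rule found 10 of the 14357 entries of the authors' table. These belonged to 6 of the 8 genes, of 4755 gene names in all, and each of the 6 had 1 locus. No entry carried the name of tefu or p53.

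The groups were cells with a knockdown of the linker histone H1 and control cells in which the knockdown was aimed at LacZ, which flies lack. Each condition had 2 RNAPII precipitations and 2 inputs of 10% of the chromatin, 8 libraries in all, and no group carried any other labelled agent or genotype. Cells were fixed in 1.8% formaldehyde for 10 minutes. The files hold 1 mean per condition and site, the authors' log2 concentration, which is a scaled read number within the site, and 1 peak list per condition from pooled libraries. Values and depths per library were therefore unknown here, and no spread between replicates can be given. Whether replicates came from separate cultures is not in the labels, and the p-values of the authors then reflect only how far these libraries differed, possibly for technical reasons. Folds are log2 differences, H1 knockdown minus LacZ, and positions are in dm3. ChIP of a bulk culture cannot tell a change in every cell from a change in some cells, and the depletion of H1 itself was not measured by this assay. Of 10 hemocyte marker genes, 8 had an entry, all within 1000 bp of the TSS, with LacZ concentrations from 8.68 (eater) to 9.73 (Pxn) in the authors' deposited table. The hemocyte genes NimC1 and Sr-CI had none by name or transcript. The neuronal gene elav had an entry, at 8.15 in the authors' deposited table, and the neuronal gene nSyb had none. The germline gene vas also had none. No entry carried the name nos, a germline gene that was not matched to RefSeq, so its transcripts were not searched.

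When DNA breaks, the MRN complex, of which Rad50 is a subunit, binds the broken ends and activates the ATM-type kinase encoded by tefu. Single-stranded DNA activates the ATR-type kinase encoded by mei-41, and checkpoint kinases such as Chk2, the product of lok, pass the signal on to p53, a transcription factor that in flies drives apoptosis genes. The ends are then joined through the Ku heterodimer, which contains Ku80, or repaired by homologous recombination with an intact copy. The gene mus301 encodes a helicase of the HELQ type, named for the sensitivity of its mutants to mutagens.

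The comparison asked whether RNAPII occupancy at these genes differed after H1 depletion. At the 5 genes with a promoter site the H1 knockdown mean was higher than the LacZ mean, by 0.14 to 0.30 on the log2 scale, and an intron site in mus301 had a fold of 1.42. None of these differences was called. By DiffBind, 0 of the 10 entries passed an FDR of 0.05, as did 0% of all 14357 entries, and the FDR listed for each of the 10 was 1 in the authors' deposited table. At an FDR of 0.10 there were 0 of 10 again, where 0.0209% of all entries passed. At an unadjusted p under 0.05 there were also 0 of 10, where 4.05% of all entries passed. The median fold of all 4755 genes was 0.15, and how the libraries were scaled is not given, so each fold is read beside that median. A fold above 0 was the usual state of a promoter site in this table: 93.5% of the 4278 genes with a site within 1000 bp of a TSS had one, and all 5 promoter genes did too. For a gene with several entries within that distance, the entry of highest mean concentration stands for it here.

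Among the genes that sense damage and signal it, rad50 had its site at the promoter on 2R, from 18308432 to 18308763 in the knockdown list and from 18308492 to 18308771 in the LacZ list. The knockdown-list entry had a concentration of 7.40 in LacZ cells and 7.70 in H1 knockdown cells, a fold of 0.30 with p = 0.135 in the authors' deposited table. The overlapping LacZ-list entry gave 7.35 and 7.59, a fold of 0.25 with p = 0.237 in the authors' deposited table. These entries share 272 bp and so count nearly the same reads, and the 0.05 between their folds shows how far the choice of peak edges moved the value.

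The kinase gene mei-41 had concentrations and folds close to those of rad50. Its promoter site on X (16285586 to 16285973 in the knockdown list, 16285653 to 16285944 in the LacZ list) had concentrations of 7.42 in LacZ and 7.70 in knockdown cells at the first entry, with a fold of 0.28 and p = 0.203 in the authors' deposited table. The second entry had 7.26 and 7.49, with a fold of 0.23 and p = 0.317 in the authors' deposited table. Both entries were centred downstream of the TSS, by 48 and 67 bp, and both pooled lists placed the summit on the same base.

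The Chk2 gene lok had the smallest fold of the genes found by name. Its promoter site on 2L, from 20061309 to 20061817, had 8.20 in LacZ and 8.35 in knockdown cells, a fold of 0.14 with p = 0.437 in the authors' deposited table, which became -0.01 once the median of all genes was subtracted. The LacZ-list entry, from 20061337 to 20061770, had 8.15 and 8.27, a fold of 0.12 with p = 0.515 in the authors' deposited table. Divided by the width of the peak, its LacZ level was 9.17 (log2 concentration per kb, knockdown-list entry), against 8.99 at rad50, 8.93 at Ku80 and 8.79 at mei-41. With no spread per library, neighbours in that order could not be told apart. Over both condition means of the 4278 promoter genes, the genes nearest to lok were CG10189, UQCR-14 and Hydr1, at Euclidean distances of 0.01, 0.01 and 0.014 on the log2 scale. With only 2 means per gene, this likeness says no more than that the sites hold like read numbers.

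**Figure D1:**
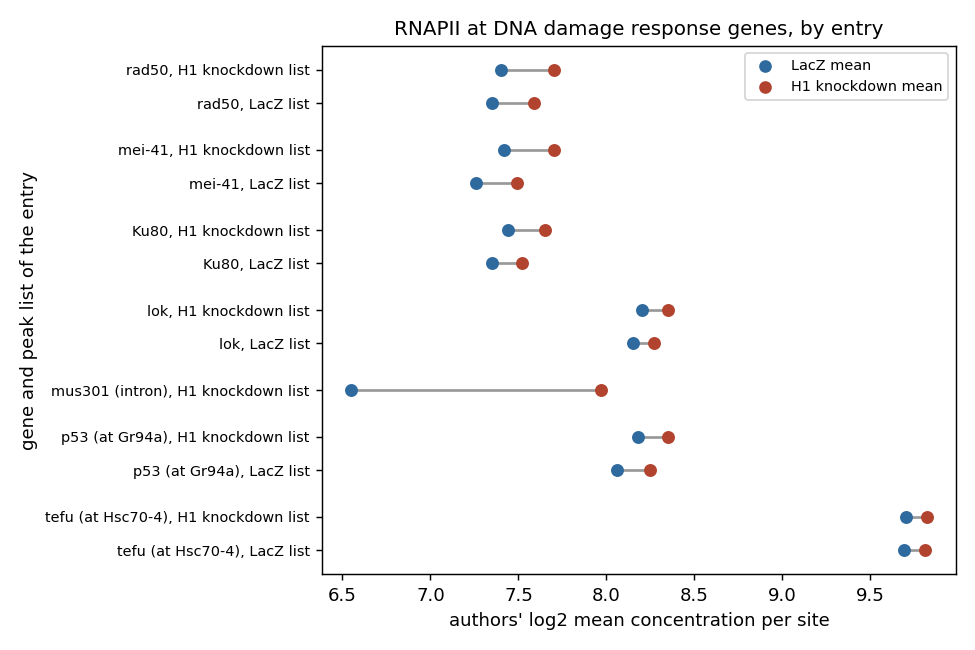
Authors' log2 mean concentration (horizontal axis) in LacZ cells (blue) and H1 knockdown cells (red) at the entries of rad50, mei-41, Ku80, lok, mus301, p53 and tefu, with the peak list that the entry came from. Each point is a mean of 2 libraries with no spread given. The line at mus301 runs from 6.55 to 7.97, and the lines at promoters are at most 0.30 long.

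Of the repair genes, Ku80 had a promoter site on 2L, from 15770900 to 15771254 in the knockdown list and from 15770934 to 15771232 in the LacZ list. The first entry had 7.44 in LacZ and 7.65 in knockdown cells, a fold of 0.21 with p = 0.344 in the authors' deposited table. The second had 7.35 and 7.52, a fold of 0.17 with p = 0.449 in the authors' deposited table. Of the promoter loci of the whole table, 17.1% had a peak in the knockdown list alone.

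The helicase gene mus301 differed from the other members in kind. Its entry lay in intron 4 of 6, on 3L from 8133191 to 8133619, 2497 bp from the TSS, and no promoter entry carried its name. The concentration was 6.55 in LacZ and 7.97 in knockdown cells, and the fold of 1.42, a 2.68-fold ratio, ranked 1 of all 14357 entries from the highest down in the authors' deposited table. The p was nevertheless 0.0765, the smallest of the 10 member entries but above 0.05, in the authors' deposited table. Of the 177 entries with a fold of at least 0.5, 148 had a p under 0.05 and 17 had a p larger than that of mus301, in the authors' deposited table. How the 2 libraries of each condition differed at this site is not known here. Its LacZ concentration was lower than that of all but 0.265% of entries, and its knockdown concentration was higher than that of 32.9% of them. The site had no repeat in its annotation, and the nearest LacZ-list peak lay 11653 bp away, at Cds. The site is in the table only through the knockdown list, so it entered by way of the group where it is high. The 236 intron entries that likewise had no LacZ-list peak had a median fold of 0.12 (25th to 75th percentile 0.01 to 0.26), against -0.03 for all 3633 intron entries. This was the largest positive fold, and 5 LacZ-list entries on the unplaced scaffold Uextra had folds from -2.23 to -1.24, of which 3 were larger in size. Only 3 entries of the table had a fold of at least 1, and the others were the promoter of Hez (1.05, p = 0.0879) and a site on Uextra (1.02, p = 0.000113) in the authors' deposited table.

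The genes tefu and p53 were missing by name and not by site. The annotation gives each promoter entry both a nearest TSS, which sets the gene name, and a promoter transcript, and the transcript belonged to p53 at both entries named Gr94a and to tefu at both entries named Hsc70-4. Transcripts were paired with genes through RefSeq's Release 6 table. The p53 promoter lay on 3R from 18877026 to 18877581. It had 8.18 in LacZ and 8.35 in knockdown cells, a fold of 0.18 with p = 0.304, and its LacZ-list entry a fold of 0.19 with p = 0.263, in the authors' deposited table. Gr94a encodes a gustatory receptor and lies within p53 in Release 6, and the entry was centred at -108 bp from the TSS of Gr94a.

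The tefu promoter lay on 3R from 11067784 to 11068957, in a peak of 1174 bp. It had 9.70 in LacZ and 9.82 in knockdown cells, a fold of 0.12 with p = 0.458, and the LacZ-list entry had the same fold with p = 0.447, in the authors' deposited table. This peak also covers the start of Hsc70-4, the next gene in Release 6 order, which encodes an abundant constitutive chaperone. Its fold enrichment over input, 61.4, ranked 30 of 7472 peaks in the knockdown list, and the value of 48.0 ranked 36 of 6885 in the LacZ list. RNAPII of the kinase gene and of the chaperone gene cannot be told apart within this peak.

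Sharing was common among these promoters. The rad50 entries were annotated to a transcript of mRpS29, a mitochondrial ribosomal protein gene that lies next to rad50. Those of mei-41 were annotated to TH1, its neighbour, which encodes a subunit of the negative elongation factor NELF. Of the 5 members with a promoter site by name, 3 were thus annotated to a transcript of another gene, where 30.3% of the 3909 genes whose promoter entry could be paired both ways were. The tefu and p53 promoters are left out of that count, since they were found through the mismatch itself. The RNAPII of both genes cannot be told apart at any of these sites.

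**Figure D2:**
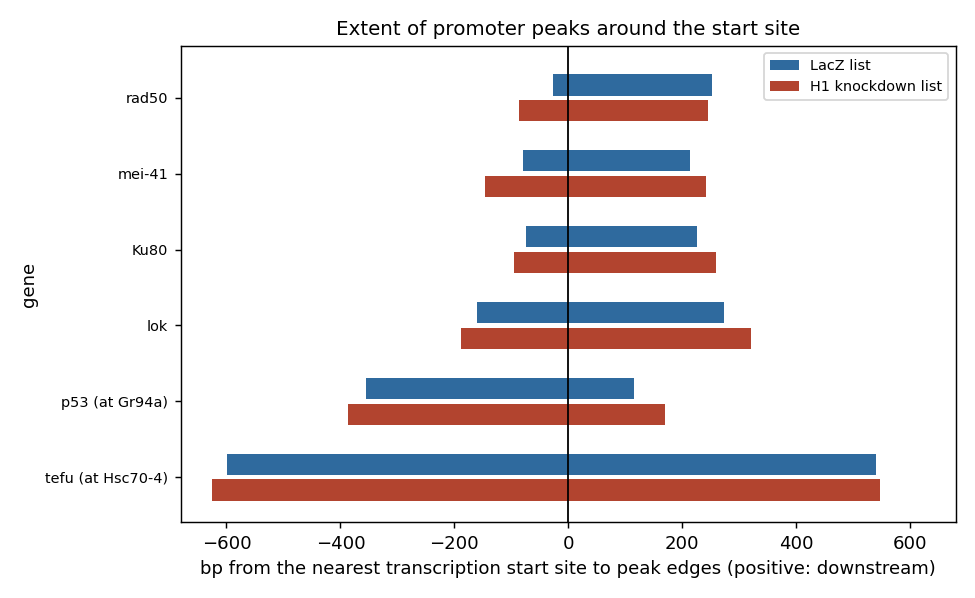
Extent of each promoter peak in bp around the nearest TSS (0), in the LacZ list (blue) and the knockdown list (red); for p53 and tefu the TSS is that of Gr94a and Hsc70-4. The rad50 peak runs from -87 to 245 bp in the knockdown list and from -27 to 253 bp in the LacZ list.

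Peaks of the member genes were read next within each pooled list, with the authors' enrichment over input. In the knockdown list the enrichment was 3.27 at rad50, 2.99 at mei-41 and 2.62 at Ku80, all below the median of 4.90 over the 4425 promoter peaks of that list. It was 6.38 at lok, above that median, and 4.24 at the p53 promoter, below it. In the LacZ list the values were 2.44 at rad50, 2.38 at mei-41, 2.10 at Ku80, 5.04 at lok and 3.70 at p53, against a median of 4.45 over 3773 promoter peaks. The order of these genes was the same in both lists.

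Both lists held a peak at 4 of the 5 promoters found by name, and at 6 of 7 with those of p53 and tefu added, where 82% of promoter loci had peaks of both lists. At each of the 6 the knockdown-list peak was the wider, by 35 bp at tefu to 96 bp at mei-41, and summits of the pair lay 0 to 13 bp apart. Across all 3661 pairs of promoter peaks, 92.1% were wider in the knockdown list and 92.7% had the higher enrichment there, so these features were not particular to the members. The depth of the pooled libraries was not known here, and its part in either feature was not tested.

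**Figure D3:**
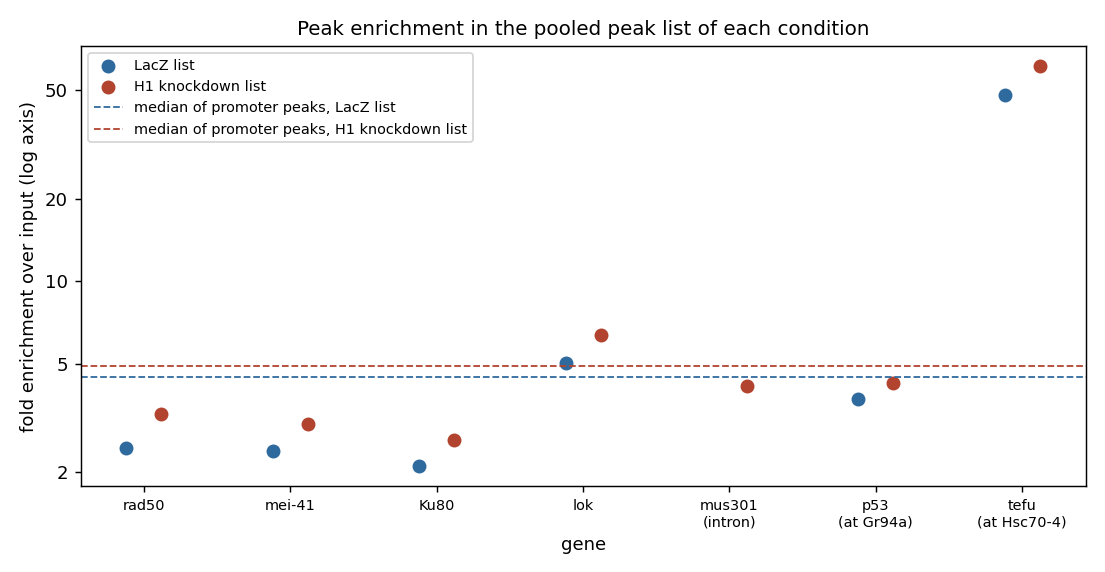
Fold enrichment over input (log axis) of the peaks of each gene in the LacZ list (blue) and knockdown list (red), with dashed lines at the medians of promoter peaks, 4.45 and 4.90. The peak at tefu, shared with Hsc70-4, reaches 61.4, and rad50, mei-41, Ku80, p53 and mus301 lie under both lines.

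The folds of the members were then set beside those of promoters with like read numbers, since the median fold was lower in promoter genes of higher concentration. The promoter genes were split by mean concentration into 4 classes of equal number. In the lowest class the median fold was 0.27 (25th to 75th percentile 0.16 to 0.36), and in the other classes it was 0.21, 0.13 and 0.08 in rising order of concentration. These classes group sites by read number, not by level per length. The genes rad50, mei-41 and Ku80 belonged to the lowest class, where their folds of 0.30, 0.28 and 0.21 lay from 0.06 under to 0.03 over its median. The folds at lok and p53 were under the median of their class, 0.21. The fold at the tefu promoter was above the 0.08 of the highest class. Over all 7 promoters of the members the median difference from the class median was -0.03, and 3 of 7 lay above it. The median fold of the 5 promoters found by name was 0.24, against 0.16 for all 4278 promoter genes, and this higher value thus came with a lower concentration.

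**Figure D4:**
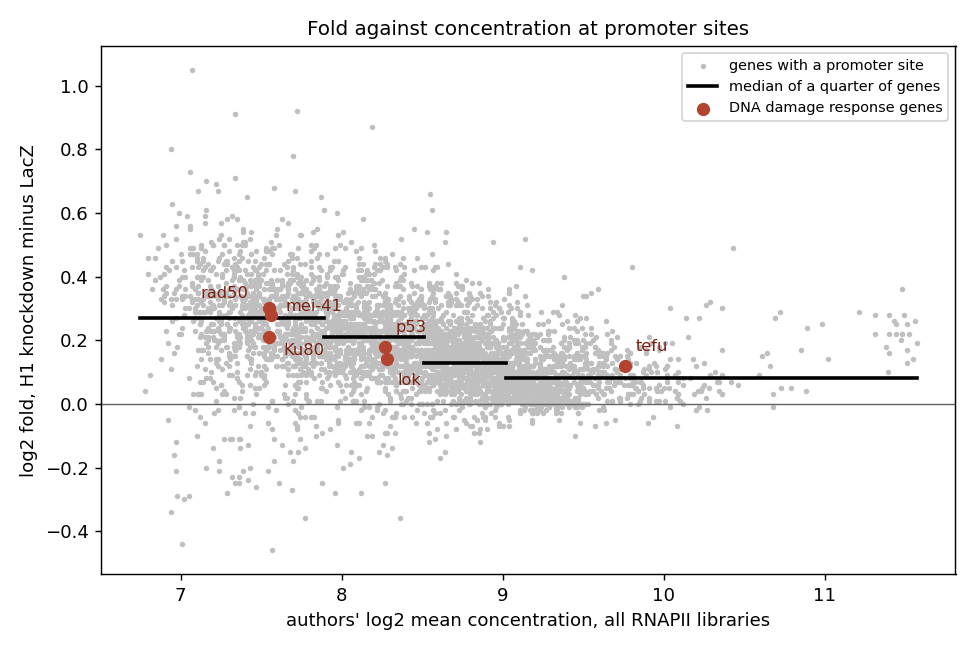
Log2 fold (vertical axis) against the authors' log2 mean concentration (horizontal axis) for 4278 genes with a promoter site (grey), with the promoter sites of rad50, mei-41, Ku80, lok, p53 and tefu in red and black lines at the median of each of 4 concentration classes. The red points lie within 0.07 of the line of their class.

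The rest of the pathway was described by 6 wider lists of 80 genes that exclude the members. By name 29 of the 80 had an entry, and 13 more had a promoter entry only through an annotated transcript, with a median fold of 0.29 and a range from 0.01 to 0.46. Of these 13, 3 were higher at the authors' unadjusted p under 0.05, where 6.33% of all genes were. The FDR listed for each of the 13 was 1 in the authors' deposited table. Of the 13, 4 had a peak in the knockdown list only, where 17.1% of all promoter loci did, a share of loci and not of genes. Of the 29 found by name, 19 had peaks of both lists, 7 lacked a LacZ-list peak and 3 lacked a knockdown-list peak. No gene of the 29 passed an FDR of 0.05, as for 0% of the 4755 genes at 1 site each. At an unadjusted p under 0.05, 3 of 29 were higher and none lower, where 6.33% of all genes were higher. The authors' own call per entry matched this unadjusted threshold at all 14357 entries. By that mark these 3, DNAlig4, Pms2 and Dark, were called higher. A fold above 0 was found at 28 of 29, against 87.3% of all genes and 93.5% of promoter genes. Their median fold was 0.22, against 0.15 for all genes and 0.16 for promoter genes. Of the 29 sites, 28 were promoter sites, so the promoter values are the closer comparison. The median concentration of the 29 was 8.27, within the class (7.89 to 8.51) whose median fold was 0.21.

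Among 14 checkpoint and sensing genes, 3 had an entry by name, and none was called at an unadjusted p under 0.05. Claspin, a mediator of the signal from ATR to Chk1, had 6.46 in LacZ and 6.99 in knockdown cells, a fold of 0.53 with p = 0.0634, at a peak of the knockdown list only, in the authors' deposited table. The mean concentration at Claspin, 6.75, was the lowest of the 4278 promoter genes. RpA-70 and RPA2, subunits of the protein that coats single-stranded DNA, had folds of 0.25 and 0.03 in the authors' deposited table. The partners mre11 and nbs of rad50, mus304 of mei-41 and Irbp (Ku70) of Ku80 had no entry by name or transcript.

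Of 23 genes of homologous recombination and crosslink repair, 5 had an entry by name, with folds from 0.12 to 0.36 and a median of 0.25, and none was called. The Fanconi anaemia genes FANCI and Fancm had folds of 0.36 and 0.31, and CtIP, which starts the resection of ends, had 0.25, in the authors' deposited table. FANCI and Fancm had a peak in the knockdown list only, and the FANCI entry was annotated to a transcript of CG13748. A further 7 had a promoter entry by transcript, with folds from 0.01 to 0.40, and with these the median of the list was 0.195. The largest was at the nuclease gene mus81, with 0.40 with p = 0.0212 at the promoter named CG3704 in the authors' deposited table. The peak was in the knockdown list only, and mus81 was chosen after its value was seen.

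End joining genes gave the smallest p of the wider lists by name. DNAlig4, the ligase that seals ends held by Ku, had 7.29 in LacZ and 7.73 in knockdown cells, a fold of 0.44 with p = 0.0238 but no call after adjustment (FDR 1), in the authors' deposited table. Its promoter entry was annotated to CG11164 and came from the knockdown list only, the group where it is high. DNAlig4 was the only 1 of 4 end joining genes named in the table. Through transcripts, XRCC4, the partner of this ligase, had 0.37 with p = 0.0459 at the promoter named ghi, and Irbp18 had 0.43 with p = 0.0548 at that named APP-BP1, in the authors' deposited table. Irbp18 was listed as the partner of Xrp1, a bZIP factor. The Irbp18 entry came from the knockdown list only, and XRCC4 and Irbp18 were chosen after their values were seen. Ku80, with 0.21, lay below DNAlig4, XRCC4 and Irbp18.

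Of 20 excision and mismatch repair genes, 9 had an entry, 8 of them with a fold above 0, and the median was 0.31. Pms2, a mismatch repair gene, had 0.40 with p = 0.0430, Xpc, which recognises bulky lesions, 0.33 with p = 0.0523, and lig3, a ligase gene, 0.38 with p = 0.0771, none called after adjustment (FDR 1), in the authors' deposited table. The Xpc entry was annotated to a transcript of CG8152. The lig3 peak was in the knockdown list only and that of Pms2 in the LacZ list only. The exception in sign, Parp, had -0.08 at an intron site 16209 bp from the TSS in the authors' deposited table. Of the 17 entries named Parp, this was the closest to the TSS, and the others are not described here. Parp is named here because of that value. Of 7 translesion synthesis genes, 2 had an entry, PolI with 0.14 and the sliding clamp gene PCNA with 0.08 in the authors' deposited table; their median of 0.11 turned to -0.04 with the median of all genes subtracted.

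Of 12 genes of the p53 response and of cell death, 9 had an entry, with a median concentration of 8.58 and a median fold of 0.12, which turned to -0.03 with the median of all genes subtracted. Dark, the Apaf-1 adaptor that activates the caspase Dronc, had 0.37 with p = 0.0476 but no call after adjustment (FDR 1), in the authors' deposited table. The Dark entry was annotated to a transcript of Paip1, so the RNAPII of both genes cannot be told apart there. The cell death activator hid had 0.25 and the inhibitor of apoptosis Diap1 0.12 in the authors' deposited table. The list medians were not set beside promoters of like concentration. Median concentrations differed, with 7.96 for the 9 excision and mismatch repair genes. The value for end joining, 7.53, is that of DNAlig4 alone. Differences between the lists were not tested.

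**Figure D5:**
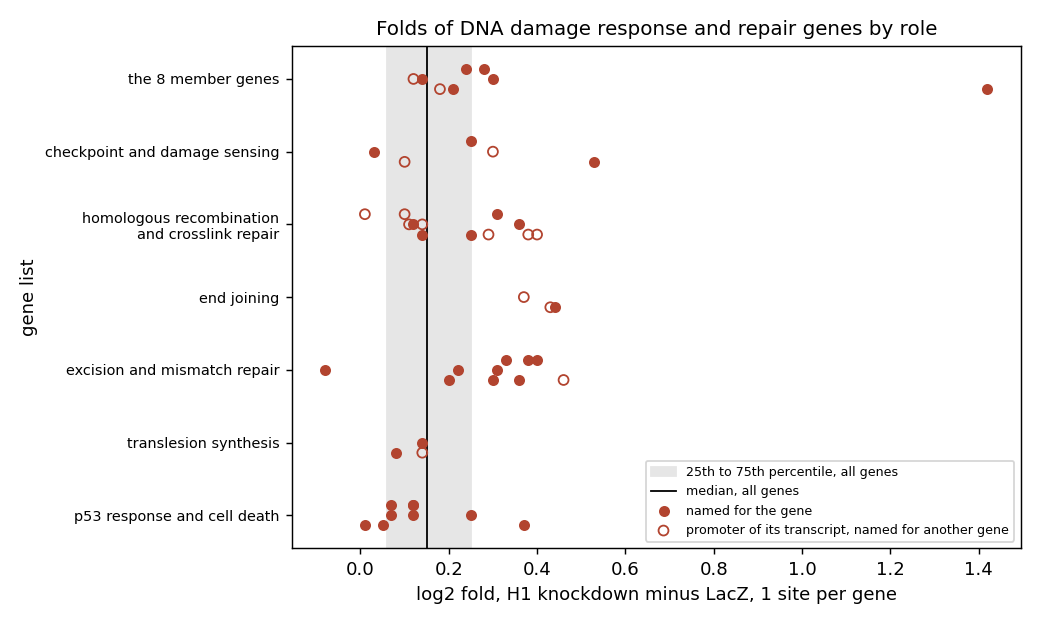
Log2 fold (horizontal axis) at 1 site per gene for the member genes and 6 wider lists (rows); filled points were named for the gene and open points are promoters of its transcripts named for another gene. The black line and grey band mark the median of all genes, 0.15, and their 25th to 75th percentile, 0.06 to 0.25; the mus301 intron site lies at 1.42.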

How the data were processed

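The build dm3 and the tools DiffBind 2.10.0, DESeq2, MACS 1.4.2 and Bowtie2 2.2.2 are listed in the submitters' processing notes; settings are not given in the sources used here. Peak names say MACS2. The authors' deposited table gives log2 concentrations, the log2 fold, and a p-value and FDR per entry; the scaling of libraries is not given. Each deposited peak list holds a score, −log10 values of q and p, and an enrichment ratio against input, and the deposited table adds a pileup signal; the score, the signal and the −log10 of p were not used. Per the file headers, Homer annotated the sites.

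Entries were matched to genes by name, and promoter transcripts to genes through RefSeq Release 6 names (7424 of 7442 promoter entries matched). A site per gene was the entry of highest mean concentration within 1000 bp of a TSS, or else the closest. The rule named all members and, of each wider list, the 3 genes of smallest p. The values of 1 member are not reported here one by one, though counts and medians include it. No test of this work was possible on condition means, so p and FDR are the authors'. Site choice and merging were tested on simulated data. Members and lists were chosen with earlier results of these data known. Alternatives concerned site, list, reference, distance, low concentration, threshold and overlap. Python 3.11.15, pandas 2.3.3, numpy 2.4.6 and matplotlib 3.10.9 were used.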

Additional observations from a re-analysis of the deposited data

How the results depend on the processing

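No paired analysis was possible because the files hold no values per library, and leaving out libraries was not run for the same reason. All 10 member entries stayed without a call at an FDR of 0.10 and at an unadjusted p under 0.05. Fold at each member kept its sign under every site choice and in each list that held it, which the LacZ list did for 4 of 6. With the median of all genes, 0.15, subtracted, the fold at lok became -0.01, and list medians became 0.11 for the members, 0.1 for checkpoint genes, 0.1 for recombination genes, 0.29 for end joining, 0.16 for excision repair, -0.04 for translesion synthesis and -0.03 for the p53 response. This follows from the subtraction, since the scaling of libraries leaves 0 unfixed. The end joining value is that of DNAlig4 alone, and the translesion synthesis value rests on 2 genes. Another alternative kept only genes above the 25th percentile of mean concentration over all 4755 genes, distal sites included. This left lok alone of the members, with 0.14, and gave 0.14 for recombination genes, from fewer genes. It left no end joining gene. Peaks of both lists were found for 4 members under a −log10 q of at least 5 and under an overlap of at least 50% of the shorter peak, and for 6 with promoters by transcript, an alternative chosen after seeing the data. Depth per library is unknown and limits every value.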

Other observations

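The sites of genes next to the members gave a local setting. Of the 64 places that lie up to 4 genes to either side in Release 6 order, 16 held a gene with an entry of its own name, with a median fold of 0.13 and a range from -0.23 to 0.31. These include Hsc70-4 and Gr94a, whose entries are the promoters of tefu and p53, and the 14 others had the same median and range. Neighbours were not searched by transcript. The genes mRpS29 and TH1 thus count as having no entry, though the rad50 and mei-41 entries were annotated to their transcripts. Beside Ku80, Mtr4, the helicase of the nuclear exosome, had 0.29 with p = 0.109 and the adhesion gene Gli 0.15 with p = 0.411, in the authors' deposited table. Beside mus301, Cds had 0.17 with p = 0.291 and 9.16 in LacZ against 9.34 in knockdown cells, in the authors' deposited table. No other of the 8 neighbours of mus301 had an entry of its own name. Beside p53, Ctns, the cystinosin gene, had 0.02 in the authors' deposited table, and the promoter of p53 itself 0.18. The only fold under 0 was at lncRNA:CR44908 near lok, -0.23 with p = 0.324 at a site -7506 bp from its TSS in the authors' deposited table. By DiffBind these neighbours had no call, and no difference between neighbours was tested.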
